A study of Mus musculus with 8 samples.

Results

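Myc, the D cyclins and the CDK inhibitors were described in ID8 IP2 cells with and without an active Notch3 receptor. The group held 10 of the 23284 gene symbols counted: Myc and Mycn, the D cyclin genes Ccnd1, Ccnd2 and Ccnd3, and the inhibitor genes Cdkn1a, Cdkn1b, Cdkn1c, Cdkn2a and Cdkn2b. They were taken by symbol, because Myc, Ccnd1 and Cdkn1a are known Notch target genes in other cells. ID8 IP2 is a mouse ovarian cancer line that descends from ovarian surface epithelium, and all lines used here also carried a luciferase and mCherry vector. In Notch3IC lines a lentivirus delivered the HA-tagged intracellular domain of Notch3 with GFP, and in Control lines it delivered the empty vector. Each of Sets 1 to 4 was 1 independent infection that gave a matched Control and Notch3IC line, grown in serum-containing medium. Each line was sequenced once, so there were 4 Control and 4 Notch3IC libraries of polyadenylated RNA. All lines share 1 parental line, and by the study's account later testing pointed to mycoplasma in all ID8 IP2 lines for the whole course of the experiments. Reads counted on genes numbered 19013578 to 28208072 in Control and 15524262 to 27107061 in Notch3IC libraries.

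Myc and its relatives Mycn and Mycl are transcription factors that pair with Max and drive growth, ribosome production and metabolism. D cyclins activate Cdk4 and Cdk6, which phosphorylate the retinoblastoma protein Rb and so free E2F factors to start DNA synthesis. The INK4 inhibitors (from Cdkn2a, Cdkn2b, Cdkn2c and Cdkn2d) block Cdk4 and Cdk6 directly, whereas the Cip/Kip inhibitors p21, p27 and p57 (from Cdkn1a, Cdkn1b and Cdkn1c) bind cyclin and CDK together. Cdkn2a also encodes, from a separate first exon, the Arf protein that activates p53.

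The labels were checked first on Notch3. Its normalized counts (counts scaled to a common library size) were 38.7, 40.6, 70.8 and 42.0 in Control Sets 1 to 4, against 4322, 467, 9220 and 5842 in Notch3IC Sets 1 to 4. All Notch3IC libraries lay far above all Control libraries, and the Notch3IC line of Set 2 was the lowest of its group. The same order held for Hey1, a direct Notch target, with 4079, 438, 10642 and 8014 normalized counts in Notch3IC against 20.3 to 56.5 in Control. Heyl had at most 2 counts in a Control library and 147 to 7460 counts in Notch3IC, and Nrarp had a log2 fold change of 7.34. A call required a Benjamini-Hochberg adjusted p below 0.1 in edgeR's quasi-likelihood test and a change of at least 1 on the log2 scale. Hes1 had 467 ± 122 normalized counts in Control and 699 ± 352 (SD, n = 4) in Notch3IC and was not called (adjusted p = 0.388). It was higher in 4 of 4 sets, as were 21.1% of all genes tested. With the matched set as a block in the edgeR fit its log2 fold change was 0.51 (adjusted p = 0.0635), under the fold limit. A pair of features of the libraries bear on what follows: Set 2 had the weakest Notch3 rise, and both lines of Set 1 had the highest Myc of their group.

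Markers of the surface epithelium and mesothelium were read in the same libraries. Krt8, Krt18, Krt19, Wt1, Upk3b and Msln were counted in every library, whereas Epcam had at most 12 counts and Krt7 at most 46. Msln, the mesothelin gene, was called lower in Notch3IC (log2 fold change -2.60, adjusted p = 0.0625) and Nr2f2 was called higher (1.17, adjusted p = 0.0708). Of the 12 markers tested 10 had a log2 fold change below 0, with a median of -0.77, and 8 were lower in all sets, as were 19.3% of all genes tested. Of all genes tested 3.40% were called higher and 0.740% lower. With the set as a block 5 markers were called lower, against 2.53% of all genes tested, namely Msln, Krt19 (-2.10), Upk3b (-1.98), Lrrn4 (-1.91) and Gata6 (-1.01). DESeq2 called 3 of the 12 lower, against 1.37% of all genes. Leukocyte markers summed to 58 to 163 counts in Control and 57 to 149 in Notch3IC libraries, with Cd68 the most abundant over all libraries, Ptprc at most 2 and Cd3e at 0. Csf1r, which exceeded Cd68 in Notch3IC Set 1 (36 against 31 counts), was called higher from a mean of 8.67 to 24.7 normalized counts. Endothelial markers summed to 16 to 31 counts in Control and 19 to 49 in Notch3IC, with Cldn5 at 0. Fibroblast and mural markers, with Acta2 the most abundant, summed to 17100 to 37176 counts in Control and 21562 to 72894 in Notch3IC, and Pdgfrb and Cspg4 were called higher (log2 fold changes 5.99 and 4.2), as was Acta2 with the block (1.45). Dcn was lower in 4 of 4 sets (log2 fold change -0.47, not called). What these marker shifts contribute to the values below was not tested.

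Promoter sequences are shown for the members at which the results turn, the lowered Mycn, the p21 gene Cdkn1a and the uncounted Cdkn2a. RefSeq promoters on GRCm38.p6, each with 250 bases before and 50 after a start site, were given for Mycn, Ccnd3, Cdkn1a, Cdkn1b, Cdkn2a and Cdkn2b, 9 in all. Myc, Ccnd1, Ccnd2 and Cdkn1c are named only. Each promoter was searched on both strands for the core of the RBPJ site through which Notch acts (TGGGAA, or TTCCCA on the other strand) and for the Myc E-box (CACGTG). The Mycn promoter is at chr12:12941787-12942086 on the minus strand, the Cdkn1a promoter at chr17:29093519-29093818 on the plus strand, and the first of both Cdkn2a promoters at chr4:89294570-89294869 on the minus strand, all 5′ to 3′ with capitals for an RBPJ core.
Mycn: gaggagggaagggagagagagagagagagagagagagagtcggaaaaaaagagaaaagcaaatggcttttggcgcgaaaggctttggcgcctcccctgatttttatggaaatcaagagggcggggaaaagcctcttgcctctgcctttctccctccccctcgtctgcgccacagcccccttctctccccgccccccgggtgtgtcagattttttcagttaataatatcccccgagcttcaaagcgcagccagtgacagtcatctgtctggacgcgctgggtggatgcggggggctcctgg
Cdkn1a: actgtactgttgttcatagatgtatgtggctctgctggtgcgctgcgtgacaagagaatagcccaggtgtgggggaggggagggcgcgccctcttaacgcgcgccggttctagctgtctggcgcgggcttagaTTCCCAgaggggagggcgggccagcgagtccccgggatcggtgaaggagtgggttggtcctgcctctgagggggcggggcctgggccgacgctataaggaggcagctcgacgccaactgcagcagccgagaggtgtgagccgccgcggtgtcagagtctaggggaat
Cdkn2a: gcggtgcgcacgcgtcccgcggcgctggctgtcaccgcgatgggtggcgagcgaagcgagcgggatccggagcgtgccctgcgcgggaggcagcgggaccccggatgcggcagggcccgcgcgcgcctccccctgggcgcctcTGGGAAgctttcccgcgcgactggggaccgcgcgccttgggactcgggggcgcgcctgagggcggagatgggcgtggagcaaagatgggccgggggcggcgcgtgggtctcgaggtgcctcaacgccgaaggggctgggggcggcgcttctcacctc
The Mycn promoter held no match to either motif. The Cdkn1a promoter had 1 RBPJ core that began at position -117 from the start site, and the second Cdkn1a promoter had none. The Cdkn2a promoter shown, the upstream one, had 1 that began at -107, and the second, downstream Cdkn2a promoter had none. Which start gives the INK4 inhibitor and which the Arf protein was not assigned here. In all, 2 of the 9 promoters held an RBPJ core and 0 an E-box, against 25.6% and 7.15% of 32851 mouse promoters of the same length.

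Of the 10 genes, 1 was higher and 1 lower in Notch3IC. The D cyclin Ccnd2 rose and Mycn fell, 6 others were tested and not called, and Cdkn2a and Cdkn2b had no counts at all. By the rule above, 3.40% of the 12430 tested genes were higher and 0.740% lower. With the set as a block 2 members were called higher (Ccnd2 and Cdkn1c) and 1 lower (Mycn), against 5.19% and 2.53% of all genes, and DESeq2 called the same members, against 5.05% and 1.37%. At an unadjusted p below 0.05, 3 members (Mycn, Ccnd2 and Cdkn1c) and 2289 of all genes tested passed.

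**Figure D1:**
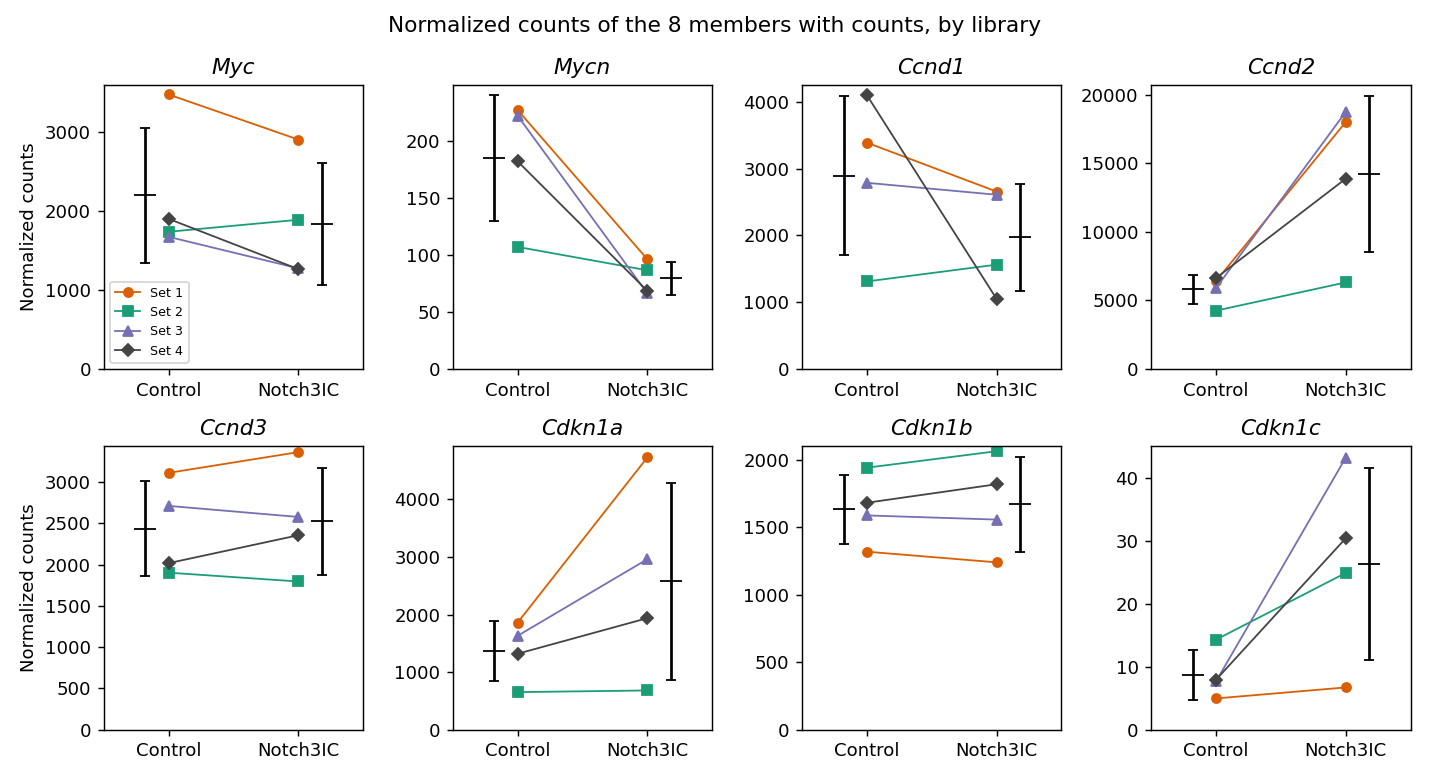
Normalized counts (linear axes from 0) of the 8 members with counts, with 1 marker and line colour for each matched set and black bars for the mean ± SD of 4 libraries. Mycn is the member whose groups do not overlap, and the Notch3IC library of Set 2 is the lowest of its group for Ccnd2 (6305) and Cdkn1a (681).

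Mycn, the MYC family member best known from neural and embryonic tissues, was the lowered gene. It had 227, 107, 222 and 182 normalized counts in Control Sets 1 to 4 and 96.2, 86.5, 66.2 and 68.4 in Notch3IC. Every Notch3IC library lay below every Control library, the closest being Control Set 2 and Notch3IC Set 1. A fall without overlap was seen in 3.75% of all genes tested. Mean values were 185 ± 55.3 for Control against 79.3 ± 14.4 for Notch3IC (SD, n = 4), a log2 fold change of -1.22 (standard error 0.26, 95% interval -1.82 to -0.62, edgeR adjusted p = 0.0467, lower in 4 of 4 sets). In these bulk libraries fewer cells expressing a gene and less RNA per cell cannot be told apart. The call was lost without Control replicate 3 (adjusted p = 0.147) or 4 (0.143), and without Notch3IC replicate 3 (0.140) or 4 (0.160), at log2 fold changes of -1.12, -1.23, -1.14 and -1.15. These fits called 83, 110, 230 and 171 of all genes tested, against 515 with all libraries. The Mycn call was also lost without all of Set 3 (0.371) or Set 4 (0.412), at -1.04 and -1.16. These omissions left 1 and 0 of all genes called by edgeR, with 1101 and 1011 at an unadjusted p below 0.05.

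Myc itself, the broadly expressed member of the family, was not called. It had 3478, 1738, 1674 and 1902 normalized counts in Control Sets 1 to 4 and 2907, 1890, 1275 and 1265 in Notch3IC. Both Set 1 lines were high, and the groups overlapped. Over the 8 libraries this gave -0.26 on the log2 scale (standard error 0.33, 95% interval -1.02 to 0.50, adjusted p = 0.743), lower in 3 of 4 sets. Within Sets 1 to 4 the log2 ratio of Notch3IC to Control was -0.26, 0.12, -0.39 and -0.59, so that Set 2 differed in sign. The sign of the overall value turned to 0.05 without Control replicate 1 alone, and without both lines of Set 1 it was -0.27. The value with the set as a block was -0.28 (adjusted p = 0.146), and without Sets 1 to 4 in turn the blocked adjusted p was 0.295, 0.0126, 0.396 and 0.453, at log2 fold changes of -0.29, -0.41, -0.24 and -0.17. None of these was a call.

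Of the Myc network, 17 genes were tested, namely Mycl, the partners and antagonists of Myc, and regulators of its stability. Mycl, listed as Mycl1, was the called one. It had 110, 56.1, 77.5 and 81.7 normalized counts in Control and 410, 113, 517 and 283 in Notch3IC, with no overlap between the groups. A rise without overlap was seen in 7.08% of all genes tested. It rose by 2.02 on the log2 scale (standard error 0.42, adjusted p = 0.0464). Like that of Mycn, the call was lost without Control replicate 3 (0.146) or 4 (0.151) or without Notch3IC replicate 3 (0.122) or 4 (0.127). Those fits called 83, 110, 230 and 171 of all genes tested. The Mycl call was also lost without all of Set 3 (0.335) or Set 4 (0.375). Across these omissions its log2 fold change was 1.70 to 2.10. Mycl was called with the set as a block (1.90, adjusted p = 0.0256), but not with the block and without Set 1 (0.126) or Set 4 (0.104). Mycl moved opposite to Mycn in each of the 4 sets, with log2 ratios of 1.89, 1.00, 2.73 and 1.79 for Mycl and -1.23, -0.31, -1.74 and -1.40 for Mycn. The obligate partner Max averaged 1341 and 1315 normalized counts in Control and Notch3IC. The antagonist Mxd4 had a log2 fold change of 0.84 that was not called (adjusted p = 0.248). The largest fall in size was the not called -1.14 of Mlxipl, a glucose-responsive factor that had 1 count in Control Set 1. With the set as a block Mlxipl was called lower (-1.18, adjusted p = 0.0853).

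Levels were compared between genes as CPM (counts scaled to a fixed library total) divided by the exon length in kilobases. This length merges the exons of all annotated transcripts of a gene. A gene expressed as a shorter transcript is therefore understated on that scale, and transcript use was not measured. On that scale Myc made up 91.0 ± 2.62% of the summed MYC family level in Control and 85.4 ± 7.29% in Notch3IC (SD, n = 4). The share of Mycn was 6.61 ± 2.25% and 3.23 ± 0.567%, and that of Mycl 2.34 ± 0.389% and 11.4 ± 7.21%. Mycl was below Mycn in all Control libraries and above it in all Notch3IC libraries by these shares, from 3.73% against 3.50% in Set 2 to 20.7% against 3.26% in Set 3. The summed level was 37.9 ± 14.1 in Control and 33.5 ± 12.5 in Notch3IC.

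Genes known to be induced by Myc, such as nucleolar proteins, nucleotide synthesis enzymes and chaperonins, were listed for comparison. None of the 30 was called in either direction by edgeR or DESeq2, and 1 had an unadjusted p below 0.05. All 30 had a log2 fold change below 0, from -0.50 to -0.05 with a median of -0.25, whereas 51.6% of all genes tested had one below 0 and their median was -0.01. The list's median ratio on the log2 scale was, in Sets 1 to 4, -0.24, 0.08, -0.41 and -0.46, the same order of sets as for Myc itself. The largest value was that of Odc1, the first enzyme of polyamine synthesis, at -0.50 (adjusted p = 0.662). With a library or set left out the Odc1 value ranged from -1.06 to -0.01. Without Control replicate 1 alone 16 of the 30 were below 0 and the median was -0.01. Without Notch3IC replicate 1 alone 29 were below 0 and the median was -0.52. Without both lines of Set 1 all 30 were below 0 and the median was -0.25. The median was -0.13 without Notch3IC replicate 3 and -0.14 without Notch3IC replicate 4. With the set as a block, 10 of the 30 had an adjusted p below 0.1 in the lower direction at any fold, against 12.1% of all genes tested. With the block and without Set 2 it was 28 of the 30, against 21.8% of all genes tested. With the block and without Set 1, 3 or 4 it was 0 in each case. Few genes of any kind passed there: with the fold limit 69, 81 and 159 of all genes were called, against 1330 without Set 2.

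Ccnd2, a D cyclin that in many cells responds to mitogens, was the raised member. It had 6402, 4247, 5898 and 6625 normalized counts in Control Sets 1 to 4 and 17995, 6305, 18729 and 13863 in Notch3IC. The Notch3IC lines of Sets 1, 3 and 4 lay above every Control line, but Notch3IC Set 2 lay below Control Sets 1 and 4, so the groups overlapped. The mean rose from 5793 ± 1074 to 14223 ± 5697 (SD, n = 4), a log2 fold change of 1.30 (standard error 0.32, 95% interval 0.57 to 2.02, adjusted p = 0.0685, higher in 4 of 4 sets). The log2 ratio was 1.49, 0.57, 1.67 and 1.07 in Sets 1 to 4. The call was lost without Control replicate 2 (adjusted p = 0.133), 3 (0.178) or 4 (0.171) and without Notch3IC replicate 1 (0.135), 3 (0.181) or 4 (0.177). Those fits called 519, 83, 110, 442, 230 and 171 of all genes tested, against 515 with all libraries. The Ccnd2 call was also lost without Set 1 (0.151), Set 3 (0.407) or Set 4 (0.415), where 550, 1 and 0 of all genes were called. Across these omissions the log2 fold change of Ccnd2 was 1.14 to 1.38. Without Notch3IC replicate 2 the log2 fold change was 1.54 (adjusted p = 0.00309). Opposite-strand genes overlapped 7.87% of its exon bases, and 1 of them, 9330179D12Rik, averaged 3.52 and 6.33 normalized counts in Control and Notch3IC.

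Ccnd1, the D cyclin most often linked to Notch and to cancer, was not called. It had 3391, 1311, 2789 and 4103 normalized counts in Control Sets 1 to 4 and 2658, 1562, 2610 and 1051 in Notch3IC. Control Set 4 was the highest of all libraries and Notch3IC Set 4 the lowest, whereas the ratios of the other 3 sets were closer to 0. The fitted log2 difference was -0.56 (standard error 0.39, 95% interval -1.45 to 0.33, adjusted p = 0.507), with log2 ratios of -0.35, 0.25, -0.10 and -1.96. The difference was -0.34 without Control replicate 4, -0.35 without Notch3IC replicate 4 and -0.13 without both. Of its exon bases 23.4% were overlapped by LTO1 on the opposite strand, listed as Oraov1, which averaged 430 and 381 normalized counts. Ccnd3 was not called either, with 3111, 1902, 2711 and 2017 normalized counts in Control and 3362, 1795, 2577 and 2355 in Notch3IC. Its groups overlapped fully, and the log2 fold change of 0.05 had a 95% interval of -0.45 to 0.55 (adjusted p = 0.937). It overlaps Bysl in 4.11% of its exon bases.

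The D cyclins were also set against each other per kilobase of exon. Ccnd2 formed 38.8, 47.7, 41.0 and 39.0% of the summed level in Control Sets 1 to 4 and 66.9, 55.5, 70.1 and 75.0% in Notch3IC. The Ccnd2 shares of the groups did not overlap, also in Set 2. The share of Ccnd1 was 39.4 ± 7.78% in Control and 19.5 ± 6.59% in Notch3IC, and that of Ccnd3 19 ± 4.37% and 13.6 ± 2.70% (SD, n = 4). The summed D cyclin level was 64.7 ± 16.9 in Control and 95 ± 34 in Notch3IC on the per-kilobase scale, with overlap. Shares over genes were not tested.

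**Figure D2:**
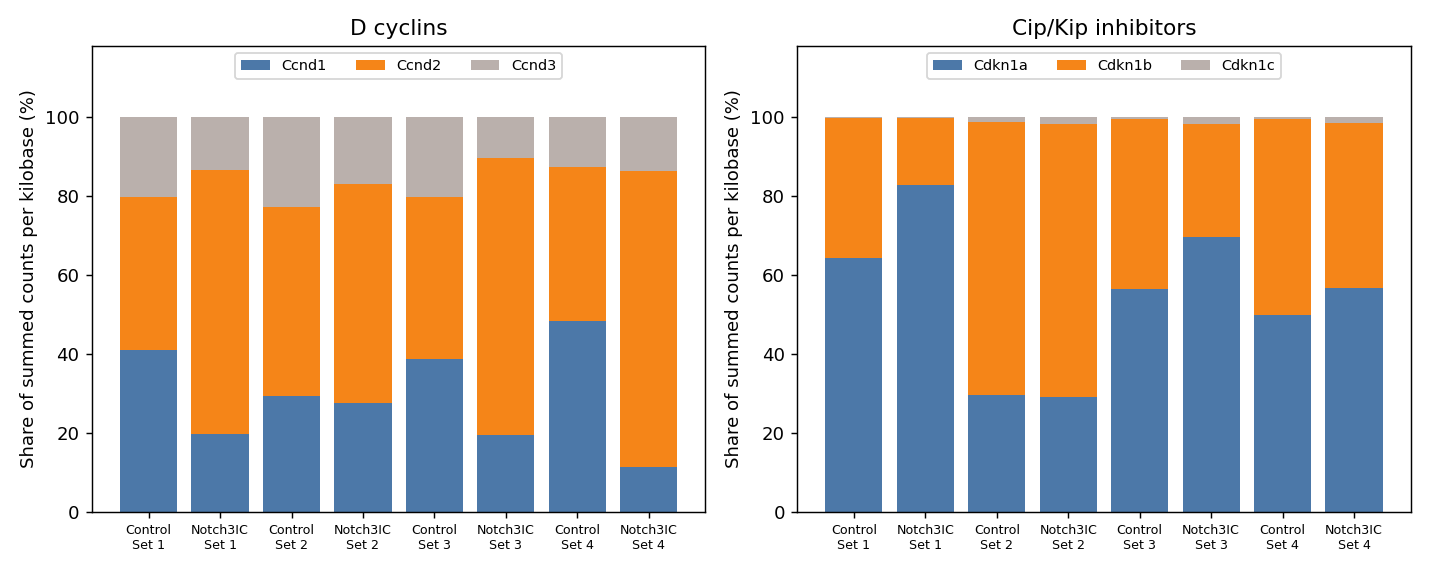
Stacked bars give the share (%) of each D cyclin (left) and each Cip/Kip inhibitor (right) in the summed counts per kilobase of exon of its family, for each of 8 libraries. Ccnd2 takes 38.8 to 47.7% of the D cyclins in Control and 55.5 to 75.0% in Notch3IC.

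The partners and targets of the D cyclins showed no called gene. Of 27 tested genes of the G1/S machinery 0 were called, also by DESeq2 and with the set as a block. In edgeR 3 had an unadjusted p below 0.05, and the list's median log2 fold change was -0.04. That median was 0.03 without Control replicate 1 alone and -0.05 without both lines of Set 1. It was -0.12 without Notch3IC replicate 1 alone and -0.09 without Control replicate 2 alone. At any fold, 0 of the 27 had an adjusted p below 0.1 in edgeR, against 6.69% of all genes tested in either direction, and 2 did by DESeq2 (Cdk6 and E2f2), against 12.8%. With the block it was 6 of 27, against 27.1% of all genes, and with the block and without Set 2 it was 10, against 45.2%. With the block and without Set 1, 3 or 4 it was 0 in each case. With the fold limit those fits called 69, 81 and 159 of all genes, against 1330 without Set 2. Cdk4 had 14403 and 13524 normalized counts on average in Control and Notch3IC (adjusted p = 0.638). Cdk6 averaged 793 and 627, with all Notch3IC libraries below all Control libraries (log2 fold change -0.34, adjusted p = 0.121). E2f2, an activating E2F, had a log2 fold change of -0.45, also without overlap (adjusted p = 0.159, 0.0422 with the block and 0.0751 by DESeq2). Of the 27 tested, 2 fell without overlap, against 3.75% of all genes tested. E2f1, also an activating E2F, had 0.31 and was higher in 4 of 4 sets (adjusted p = 0.299, 0.0351 with the block and 0.312 by DESeq2). A ratio above 0 in every set was seen in 21.1% of all genes tested. Rb1, the retinoblastoma gene, had 0.32 (adjusted p = 0.256). Cdk6, E2f2, E2f1, Cdk4 and Rb1 were named after their values were seen.

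Further along the cycle, 26 E2F-driven genes of S phase and mitosis were tested and 0 called, likewise by DESeq2 and with the block, and 0 had an unadjusted p below 0.05 in edgeR. Of these 20 had a log2 fold change below 0 and the median was -0.06. Without Control replicate 1 alone it was 11 of 26 with a median of 0.03, and without both lines of Set 1 it was 17 with -0.07. Without Control replicate 2 alone it was 22 with a median of -0.15, and without Notch3IC replicate 1 alone it was 20 with -0.12. With the block 2 of the 26 had an adjusted p below 0.1 at any fold, and with the block and without Set 2 it was 11, against the 27.1% and 45.2% of all genes. The largest was that of Rrm2, a subunit of the enzyme that makes deoxynucleotides, at -0.43 (adjusted p = 0.323). The proliferation marker Mki67 averaged 18783 and 20051 normalized counts in the respective groups (log2 fold change 0.09, adjusted p = 0.833).

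Cdkn1a, which encodes p21 and responds to p53 and TGF-beta, was higher in Notch3IC in each set but was not called. It had 1861, 652, 1631 and 1319 normalized counts in Control Sets 1 to 4 and 4729, 681, 2961 and 1937 in Notch3IC. The groups overlapped because both lines of Set 2 were the lowest of their group and nearly equal. On the log2 scale the fit gave 0.92 (standard error 0.53, 95% interval -0.30 to 2.13, adjusted p = 0.416), and 0.46 without Notch3IC replicate 1. The log2 ratio was 1.35, 0.06, 0.86 and 0.55 in Sets 1 to 4, and 21.1% of all genes tested had a ratio above 0 in every set. With the set as a block the value was 0.72 (adjusted p = 0.0698), under the fold limit for a call. With the block and without Sets 1 to 4 in turn it was 0.50, 0.92, 0.67 and 0.78 (adjusted p = 0.174, 0.00871, 0.261 and 0.229), none of them a call. AC167363.2 on the opposite strand overlapped 7.68% of the Cdkn1a exon bases.

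Cdkn1b, which encodes p27, had the smallest log2 fold change in size of the 8 members tested. There were 1320, 1943, 1589 and 1683 normalized counts in Control Sets 1 to 4 and 1241, 2065, 1558 and 1820 in Notch3IC. The groups overlapped and the sets kept their order, with Set 2 highest and Set 1 lowest in both. That value was 0.03 (standard error 0.17, 95% interval -0.37 to 0.43, adjusted p = 0.954).

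Cdkn1c, the imprinted gene for p57, was scarce, with 5, 12, 8 and 10 counts in Control Sets 1 to 4 and 6, 17, 47 and 36 in Notch3IC. In normalized counts this was 4.96, 14.3, 7.66 and 7.93 against 6.71, 24.9, 43.2 and 30.4. Notch3IC Sets 2, 3 and 4 were above all Control libraries, and Notch3IC Set 1 was below 3 of them. The fit gave a log2 fold change of 1.61 (standard error 0.56, 95% interval 0.34 to 2.89, adjusted p = 0.166), higher in 4 of 4 sets and not called. It was called with the set as a block (1.57, adjusted p = 0.0521), by DESeq2 (1.60, adjusted p = 0.0891), without Notch3IC replicate 1 (1.93, adjusted p = 0.0683) and without Set 1 (1.75, adjusted p = 0.0752). Of its exon bases 30.7% are overlapped by Gm44732 on the opposite strand, and without strand information reads of the pair cannot be separated.

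Per kilobase, the mean shares of Cdkn1a and Cdkn1b in the Cip/Kip level were nearly even in Control, but they differed by set. Cdkn1a formed 50.1 ± 14.8% and Cdkn1b 49.3 ± 14.4% there, against 59.6 ± 22.9% and 39.0 ± 22.4% in Notch3IC (SD, n = 4). By set, Cdkn1a formed 29.7 and 29.2% in the Control and Notch3IC lines of Set 2 but 64.2 and 82.8% in those of Set 1. Cdkn1c formed 0.605 ± 0.368% in Control and 1.35 ± 0.772% in Notch3IC.

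Cdkn2a and Cdkn2b, neighbours on chromosome 4, had 0 counts in every library. Over 186689224 counts in all, neither gene was seen, and 0 counts in a library allow up to 3 counts there, a level of 0.106 to 0.193 CPM by library (counting error only). They were among the 25.4% of listed symbols without a count in any library. Genes around them were counted: Mtap, the methylthioadenosine phosphorylase gene, averaged 6812 and 7992 normalized counts in Control and Notch3IC, and Klhl9 2225 and 2665. Neither was called (log2 fold changes 0.23 and 0.26, adjusted p = 0.647 and 0.236). Dmrta1, on the other side, had 0 counts throughout. From RNA counts a deleted and a silent locus cannot be told apart.

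The other INK4 genes were present. Cdkn2c, which encodes p18, had 1444, 1953, 2042 and 2010 normalized counts in Control Sets 1 to 4 and 786, 1984, 1222 and 1327 in Notch3IC. Sets 1, 3 and 4 were lower in Notch3IC and Set 2 was level. Its value of -0.49 on the log2 scale was not called (adjusted p = 0.357) and was the largest in size of the G1/S list. With a library or set left out the Cdkn2c value ranged from -0.74 to -0.30. Per kilobase of exon, Cdkn2c reached a level of 29.7 ± 4.49 in Control and 21.2 ± 7.90 in Notch3IC, against 2.40 ± 0.169 and 2.09 ± 0.329 for Cdkn2d, the p19 gene (SD, n = 4).

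**Figure D3:**
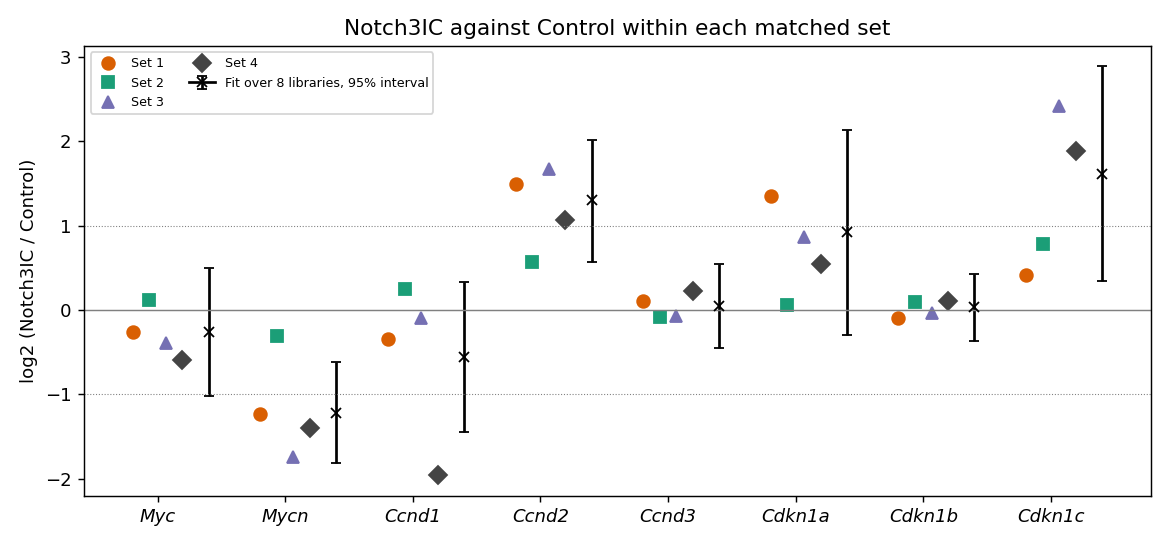
Log2 ratio of Notch3IC to Control within each matched set (coloured markers) and the log2 fold change over 8 libraries with its 95% interval (black crosses and bars), for the 8 members with counts. The intervals of Mycn, Ccnd2 and Cdkn1c lie off 0, and dotted lines mark the fold limit of 1 in size.

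Across the 4 sets, the ratios of a member ranged most for Cdkn1c (0.41 to 2.42) and Ccnd1 (-1.96 to 0.25). The smallest ratio in size was that of Set 2 for 4 of the 8 members tested, as it was for 53.1% of all genes tested and for 88.2% of the 515 called genes. The plot of ratios within sets shows this for Mycn, Ccnd2, Myc and Cdkn1a.

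By level per kilobase the members ranked in Control as Myc (34.7 ± 13.5), Ccnd1 (26.4 ± 10.8), Ccnd2 (26.4 ± 4.89), Cdkn1a (16.5 ± 6.33), Cdkn1b (15.4 ± 2.42), Ccnd3 (11.9 ± 2.81), Mycn (2.40 ± 0.719) and Cdkn1c (0.183 ± 0.0835). Ranges of neighbours in that order overlapped down to Ccnd3, and Mycn and Cdkn1c each stood apart from the gene above. In Notch3IC the order was Ccnd2 (64.8 ± 25.9), Cdkn1a (31.1 ± 20.6), Myc (28.9 ± 12.2), Ccnd1 (17.9 ± 7.23), Cdkn1b (15.7 ± 3.33), Ccnd3 (12.3 ± 3.17), Mycn (1.03 ± 0.188) and Cdkn1c (0.553 ± 0.318). Ranges of neighbours overlapped there except between Ccnd3 and Mycn (8.77 to 16.4 against 0.861 to 1.25).

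For each member the genes most like it over the 8 libraries were found by Pearson's r of log2 CPM, among 9502 genes with at least 100 counts in every library. Each r is a description over 8 libraries that share sets and treatment. Myc was most like the chaperonin gene Cct6a (0.998) and the purine synthesis gene Atic (0.997), and Mycn like Polr2g (0.977) and Stk4 (0.975). Ccnd2 was most like the protease gene Prss23 (0.997), itself called higher with a log2 fold change of 1.82, and Srd5a1 (0.984). Ccnd1 was most like Ilf2 (0.948) and the mitotic cyclin gene Ccnb1 (0.907), and Ccnd3 like Dip2c (0.979) and Rap2b (0.974). Cdkn1a was most like Midn (0.994) and the p53 target Ccng1 (0.987), Cdkn1b like Tmem55b (0.984) and Dgat1 (0.984), and Cdkn1c like the retinoic acid receptor gene Rara (0.979) and Lxn (0.976).

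Lists of genes known to act with or on the inhibitors were read beside them. Their counts of called genes stand beside 3.40% of all genes tested called higher and 0.740% called lower. Calls lost with a library left out stand beside the 515 genes called with all libraries. Without Control replicates 1 to 4 in turn 626, 519, 83 and 110 of all genes were called. Without Notch3IC replicates 1 to 4 in turn it was 442, 1007, 230 and 171. Of 26 p53 target genes 1 was called higher and 0 lower, a share near that of all genes, and the median log2 fold change was 0.14. The called gene was Ddit4, an mTOR inhibitor, with 739 ± 216 normalized counts in Control against 2414 ± 1431 in Notch3IC (a log2 change of 1.71, adjusted p = 0.0719). Its call was lost without any 1 library other than Notch3IC replicates 1 and 2 (adjusted p from 0.102 to 0.215). Gdf15, a stress cytokine, had the largest value, 1.77, and was not called (adjusted p = 0.158), but it was called with the set as a block (1.66, adjusted p = 0.0297) and by DESeq2 (1.75, adjusted p = 0.0391). Mdm2, a classical p53 target, averaged 3324 and 3301. Phlda3 (0.66, adjusted p = 0.291) and Sesn1 (0.58, adjusted p = 0.274) were higher in 4 of 4 sets, as were 21.1% of all genes tested, and were not called. With the block their adjusted p was 0.0349 and 0.0591, under the fold limit. At any fold, 4 of the 26 had a blocked adjusted p below 0.1 in the higher direction and 2 in the lower. Over all genes tested it was 27.1% in either direction.

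Of 21 TGF-beta, FoxO and KLF regulators of the inhibitors, 2 were called higher and 0 lower, with a median of 0.16. Tbx2, a repressor of CDK inhibitor genes, had 58.5, 75.2, 33.5 and 36.5 normalized counts in Control Sets 1 to 4 and 275, 117, 695 and 711 in Notch3IC, without overlap. The rise was 3.15 on the log2 scale (standard error 0.55, adjusted p = 0.0325). Of all genes tested 7.08% rose without overlap. Id3, an inhibitor of bHLH factors, was called as well (1.38, adjusted p = 0.0797). The Tbx2 call was lost without Control replicate 3 (0.113) or 4 (0.126) or Notch3IC replicate 4 (0.101), and that of Id3 without any 1 library other than Notch3IC replicates 1 and 2 (0.104 to 0.234). The Smad2 gene had an adjusted p of 0.0386 at a log2 fold change of 0.57, under the fold limit, and Klf4 had -1.23 (adjusted p = 0.172). Klf4 was called lower with the set as a block (-1.47, adjusted p = 0.0696) and by DESeq2 (-1.25, adjusted p = 0.0389).

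Cdkn1c lies in an imprinted region on chromosome 7. Of 5 tested genes of that region H19, a growth-restraining long noncoding RNA, was called higher, with 10.9, 9.55, 2.87 and 0 normalized counts in Control Sets 1 to 4 and 140, 36.6, 150 and 57.4 in Notch3IC. All Notch3IC libraries were above all Control libraries (log2 fold change 4.08, adjusted p = 0.0422), as for 7.08% of all genes tested. Of 9 tested genes of the imprinted growth network, which also holds H19, 3 were called higher and 0 lower with a median of 0.78. The others were Plagl1, which encodes a zinc-finger activator of that network (3.08, adjusted p = 0.0392), and Peg10, a gene of retrotransposon origin (2.36, adjusted p = 0.0169). The H19 call was lost without replicate 3 or 4 of either group (0.103 to 0.143) and that of Plagl1 without Control replicate 3 (0.113) or 4 (0.139) or Notch3IC replicate 4 (0.126), whereas Peg10 kept its call without any 1 library. Igf2, beside H19, averaged 2.69 and 3.44 normalized counts and was too low to test.

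Of 13 senescence-associated genes 1 was called higher and 0 lower, against 3.40% and 0.740% of all genes tested. It was Il6, an inflammatory cytokine gene (log2 fold change 2.18, adjusted p = 0.027) from 5.84 ± 1.80 to 26.7 ± 9.60 normalized counts, and the median was 0.05. Of 13 quiescence genes 2 were called higher and 0 lower, against the same shares of all genes, with a median of 0.25. These were Gas6, a ligand of Axl-type receptors named for its growth-arrest expression (2.70, adjusted p = 0.0262), and Klf2 (1.48, adjusted p = 0.0891). The calls of Il6 and Gas6 were lost without Control replicate 3 (0.104 for both) or 4 (0.113 and 0.105), and that of Klf2 without any 1 library other than Notch3IC replicate 2 (0.105 to 0.252). Without both lines of Set 3 or of Set 4, all the calls named in these lists were lost. Those fits called 1 and 0 of all genes tested. Gas6 averaged 1187 ± 440 normalized counts in Control and 7702 ± 3870 in Notch3IC (SD, n = 4).

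**Figure D4:**
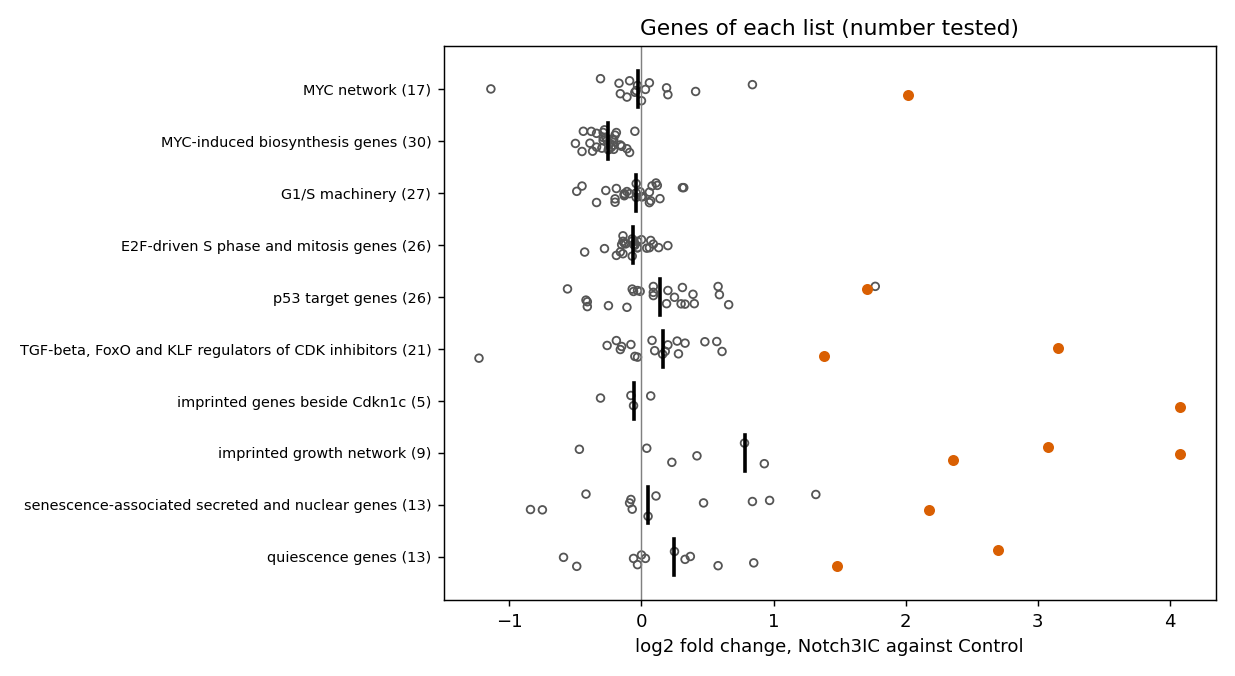
Log2 fold change of Notch3IC against Control for each tested gene of 10 lists, with the number tested in parentheses, filled points for called genes and a black bar for the list's median. The 30 Myc-induced genes all lie below 0 (median -0.25) with none called, whereas the G1/S list is centred at -0.04.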

How the data were processed

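Total RNA of 4 Control and 4 Notch3IC lines was sequenced as single-end reads of 100 bases after poly-A selection. The authors deposited raw counts per gene symbol for each library, which are whole numbers without normalization. The submitters' processing notes name TopHat, Cufflinks, DESeq and the mm9 build. Versions, annotation and strand setting are not given in the sources used here. Depth was 15524262 to 28208072 counts. The interval for a count of 0 covers counting error only.

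Notch3IC was compared with Control with edgeR 4.0.16 in R 4.3.3 (TMM, filterByExpr, robust quasi-likelihood F test, condition alone, Benjamini-Hochberg over 12430 genes). Calls required an adjusted p below 0.1 and a change of 1 or more on the log2 scale. Errors are Wald standard errors from the quasi-likelihood weights. Ratios within sets used a pseudocount of 0.5 counts and carry no test, since a set has 1 library per condition. Each set is 1 infection of the same parental line, so p-values measure the spread between infections of that line. The main fit ignores the pairing, so its p-values also take in differences between sets that both lines of a set share. The biological coefficient of variation, edgeR's measure of spread between libraries, was 26.3% for condition alone and 14.1% with the set as a block. Exon lengths and overlaps are from GENCODE M21 (GRCm38), a later build than the counts used. Of 246 listed symbols 246 were found, 4 through synonyms.

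The set numbers pair the libraries. The study describes each set as matched lines of 1 infection, and deviations from the group means correlated at 0.80, 0.40, 0.57 and 0.41 within Sets 1 to 4, against -0.50 to 0.37 across sets. Alternatives were DESeq2 1.42.0, RLE, upper-quartile and total-count scaling, no expression filter, at least 10 counts in every library, the set as a replicate block, an adjusted p below 0.05, no fold limit, and omission of single libraries and of whole sets. The block with each set left out was added after seeing the data.

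The members and lists were chosen with earlier results of these data known. Named genes are all members, Notch3, Hey1, Heyl, Nrarp and Hes1, each list's called genes and largest change, and the 2 genes most like each member. Others, such as Max, Mxd4, Mlxipl, Mki67, Mdm2, Phlda3, Sesn1, Smad2, Klf4, Mtap, Dmrta1, Igf2 and the markers, were named after their values were seen. Figures were drawn with Matplotlib 3.10.9.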

Additional observations from a re-analysis of the deposited data

Results flagged for a closer look

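In 7 of 62 groups of 4 libraries searched, 1 library stood apart from the other 3 by Dixon's criterion, where chance gives about 1 in 20, or 3.1. Of these, 5 were in Set 1. Myc had 3478 normalized counts in Control replicate 1 against 1674 to 1902 in the other Control libraries. In the same library Odc1 had 5405 against 1762 to 2210, the Notch ligand gene Jag1 had 909 against 441 to 499, and Cdkn2c was low at 1444 against 1953 to 2042. Hes1 had 1227 normalized counts in Notch3IC replicate 1 against 509 to 549 in the other Notch3IC libraries. Notch3 was highest in Control replicate 3, at 70.8 against 38.7 to 42.0, and Notch1 was lowest in Control replicate 2, at 35.8 against 53.1 to 54.6.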

How the results depend on the processing

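Of 181 values of the members under the alternatives, 147 kept their direction and side of the threshold. Mycn kept its call under every alternative that used all 8 libraries, and Ccnd2 under all of those except an adjusted p below 0.05. Members called higher numbered 2 by DESeq2 and with the replicate block (Ccnd2 and Cdkn1c) and 0 at an adjusted p below 0.05. Leaving out a library or set gave 0 to 1 higher and 0 to 1 lower, and the same with the block. The 1 member called higher without Notch3IC replicate 1 and without Set 1 was Cdkn1c in place of Ccnd2. With the block, Mycn lost its call without Set 1 (adjusted p = 0.142), Set 3 (0.156) or Set 4 (0.160), and Ccnd2 without Set 1 (0.126), Set 3 (0.119) or Set 4 (0.127). Cdkn1c, called with the block, was not called with the block without Set 1 (0.131), Set 3 (0.228) or Set 4 (0.224). The block changed no other member's call. Of all genes tested, 708 were called higher and 192 lower by DESeq2, 645 and 315 with the replicate block, 48 lower at an adjusted p below 0.05 and 210 lower without a fold limit. Leaving out a library or set gave 0 to 702 higher and 0 to 305 lower, and with the block the counts without Sets 1 to 4 were 46, 904, 59 and 129 higher and 23, 426, 22 and 30 lower. Signs turned only for Myc, Ccnd3 and Cdkn1b. Myc, at -0.26 over all 8 libraries, ranged from -0.57 to 0.05, the latter without Control replicate 1. Ccnd3 ranged from -0.11 to 0.19 and was -0.11 without Notch3IC replicate 1, -0.05 without Control replicate 2, -0.03 without Control replicate 4 and -0.01 with the block without Set 4. Cdkn1b ranged from -0.09 to 0.15 and was -0.06 without Control replicate 1, -0.09 without Notch3IC replicate 2, -0.01 without Notch3IC replicate 4 and -0.01 with the block without Set 4. The cause of these shifts was not tested. Few counts limit Cdkn1c, which was not tested at 10 counts in every library or without Set 2, and the single library per line limits every value within a set.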
